A study of Mus musculus with 2 samples.

Results

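The Wnt ligands, their receptors and their secreted regulators were taken as all features whose symbol is Wnt, Fzd, Sfrp, Dkk or Rspo followed by a digit, which gave 42 of the 28001 features counted. They were 19 Wnt ligands, 10 Frizzled receptors (Fzd), 4 secreted Frizzled-related proteins (Sfrp), 4 Dickkopf proteins (Dkk) and 5 rows of the R-spondin family (Rspo), 1 of which, Rspo4os, is an antisense transcript that overlaps Rspo4 and is not a ligand. The counts came from droplet single-cell RNA sequencing of mouse forebrain at postnatal day 0, dissected as lateral and dorsal cortex with hippocampus. There was 1 library of Gmnc-/- mice and 1 library of their wild-type littermates, both on the C57BL/6J strain, and each pooled cells of 4 animals from 2 litters. Gmnc encodes GemC1, a coiled-coil protein that starts the programme of multiciliated cells.

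Wnt ligands are lipid-modified secreted proteins that bind Frizzled receptors and, with the co-receptors Lrp5 and Lrp6, keep beta-catenin from being degraded, so that it can act on TCF/LEF target genes. Sfrp proteins bind Wnt ligands outside the cell, Dickkopf proteins such as Dkk1 block the Lrp co-receptors, and R-spondins keep Frizzled receptors at the surface by way of Lgr receptors and the ligases Rnf43 and Znrf3. In the developing forebrain the cortical hem, a signalling centre at the medial edge of the cortex beside the choroid plexus, is known as a source of Wnt ligands and R-spondins.

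The Gmnc-/- library kept 21184 cells with 108361274 unique molecular identifiers (UMIs, each a counted RNA molecule) and the wild-type library 10478 cells with 78798226 UMIs, with medians of 4484 and 5994.5 UMIs per cell. The libraries shared 85 cell barcodes. Doublets were called in 19.1% of Gmnc-/- and 4.21% of wild-type cells, while mitochondrial counts made up a median of 1.21% and 3.29% per barcode. Female-pattern cells, with Xist UMIs and none of the Y-linked genes used, numbered 9675 in the Gmnc-/- and 7088 in the wild-type library. Male-pattern cells, with Y-linked UMIs and none of Xist, numbered 5430 and 1585, so that the mix of patterns differed between the libraries. Gmnc itself gave 89 UMIs in the Gmnc-/- library and 64 in the wild-type library, or 0.821 and 0.812 CPM, the depth-scaled count. The deleted part of the gene is not given in the sources used here, so that these 3-prime tags do not check the label, and genotypes are named as labelled. Ependymal-like cells numbered 0 and 130 and Cajal-Retzius-like cells 1 and 37 in the Gmnc-/- and the wild-type library. The markers that name ependymal-like cells include cilia genes, so that cells of this lineage without cilia RNA would not get the name. With 1 library per genotype no test of a difference was possible. Each comparison is between these 2 libraries, and intervals in parentheses are exact 95% intervals that cover counting error only.

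Promoters are shown for 6 ligand genes whose RNA came mostly or at its highest level from meningeal fibroblast-like, choroid plexus-like or unnamed cells: Wnt4, Wnt6 and Wnt16, and Rspo1, Wnt3a and Wnt8b. Each is the 250 bases before the RefSeq start on GRCm38.p6, 5′ to 3′ on the gene's strand. Capitals mark the GC box GGGCGG on either strand, a motif bound by Sp-family factors, and overlapping matches run together.
Wnt4 (chr4:137277385-137277634, plus strand): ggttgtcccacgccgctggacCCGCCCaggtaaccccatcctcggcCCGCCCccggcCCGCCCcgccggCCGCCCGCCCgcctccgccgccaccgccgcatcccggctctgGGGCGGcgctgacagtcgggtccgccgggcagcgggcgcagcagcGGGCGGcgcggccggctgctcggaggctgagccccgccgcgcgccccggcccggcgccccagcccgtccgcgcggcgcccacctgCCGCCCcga
Wnt6 (chr1:74771642-74771891, plus strand): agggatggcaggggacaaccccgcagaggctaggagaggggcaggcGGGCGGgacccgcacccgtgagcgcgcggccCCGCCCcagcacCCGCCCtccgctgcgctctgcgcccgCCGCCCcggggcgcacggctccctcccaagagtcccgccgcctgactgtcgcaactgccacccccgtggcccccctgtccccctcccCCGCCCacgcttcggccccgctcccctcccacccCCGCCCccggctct
Wnt16 (chr6:22287977-22288226, plus strand): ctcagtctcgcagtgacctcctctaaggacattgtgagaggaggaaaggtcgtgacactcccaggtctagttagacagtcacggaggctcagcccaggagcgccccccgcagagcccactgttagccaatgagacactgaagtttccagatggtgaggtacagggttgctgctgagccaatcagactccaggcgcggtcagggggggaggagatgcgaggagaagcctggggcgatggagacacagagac
Rspo1 (chr4:124986180-124986429, plus strand): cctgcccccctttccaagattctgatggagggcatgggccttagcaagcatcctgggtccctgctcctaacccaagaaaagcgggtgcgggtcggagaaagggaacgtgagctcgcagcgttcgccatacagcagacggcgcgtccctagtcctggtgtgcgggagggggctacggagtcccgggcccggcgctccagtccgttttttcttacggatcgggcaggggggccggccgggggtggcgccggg
Wnt3a (chr11:59290752-59291001, minus strand): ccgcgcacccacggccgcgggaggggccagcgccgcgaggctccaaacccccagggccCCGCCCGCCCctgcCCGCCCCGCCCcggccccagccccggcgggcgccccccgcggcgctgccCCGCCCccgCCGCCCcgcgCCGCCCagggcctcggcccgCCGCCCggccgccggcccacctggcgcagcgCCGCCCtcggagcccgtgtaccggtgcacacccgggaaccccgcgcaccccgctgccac
Wnt8b (chr19:44493222-44493471, plus strand): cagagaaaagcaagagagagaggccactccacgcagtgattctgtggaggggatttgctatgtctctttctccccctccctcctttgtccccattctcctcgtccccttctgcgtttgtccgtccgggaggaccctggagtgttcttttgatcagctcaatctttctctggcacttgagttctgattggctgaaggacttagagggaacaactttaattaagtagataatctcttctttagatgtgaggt
The GC box was found 8 times for Wnt4, 6 times for Wnt6 and 9 times for Wnt3a, and 0 times for Wnt16, Rspo1 and Wnt8b, so that both source groups held genes with it and genes without it. RefSeq promoters were matched for 27 of the 42 members, as 30 windows. The GC box was present in 21 of these (70.0%) and in 32.7% of all 32817 windows of this length. The TCF/LEF motif CTTTGAA was present in the window of Dkk1 and in 4.46% of all windows, and CTTTGAT in windows of Wnt5b and Wnt11 and in 3.21% of all. TATAAA was present in windows of Dkk2, Fzd1, Wnt11 and Dkk1 and in 12.4% of all. A match is a description of these letters and not a site. Of the ligand genes, 4 pairs lie next to each other on mm10. Wnt6 and Wnt10a are 6193 bases apart on chromosome 1, Wnt3a and Wnt9a 16175 bases apart on chromosome 11, Wnt9b and Wnt3 24328 bases apart on chromosome 11, and Wnt10b and Wnt1 11706 bases apart on chromosome 15. Neighbours were not read out in the same cells throughout: Wnt6 UMIs lay mostly in meningeal fibroblast-like cells, while most Wnt10a UMIs of a named class lay in intermediate progenitor-like cells.

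Over all cells, 32 of the 42 members had 50 or more UMIs in both libraries together. Of these, 4 were at least 1.5-fold higher in the Gmnc-/- library and 9 at least 1.5-fold lower, and 19 lay within 1.5-fold. Over all 17306 features with 50 UMIs, 8.9% were higher and 15% lower by the same rule, or 23.9% in either direction. The median log2 ratio was -0.19 over the 32 members and 0.04 over all these features. In such sums, fewer cells of a type and less RNA per cell cannot be told apart. The other 10 members were Wnt1, Wnt2, Wnt8a, Wnt9b, Wnt10b, Wnt11, Dkk1, Dkk4, Rspo4 and Rspo4os, which had too few UMIs for a ratio, and Wnt8a had 0 UMIs in both libraries.

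**Figure D1:**
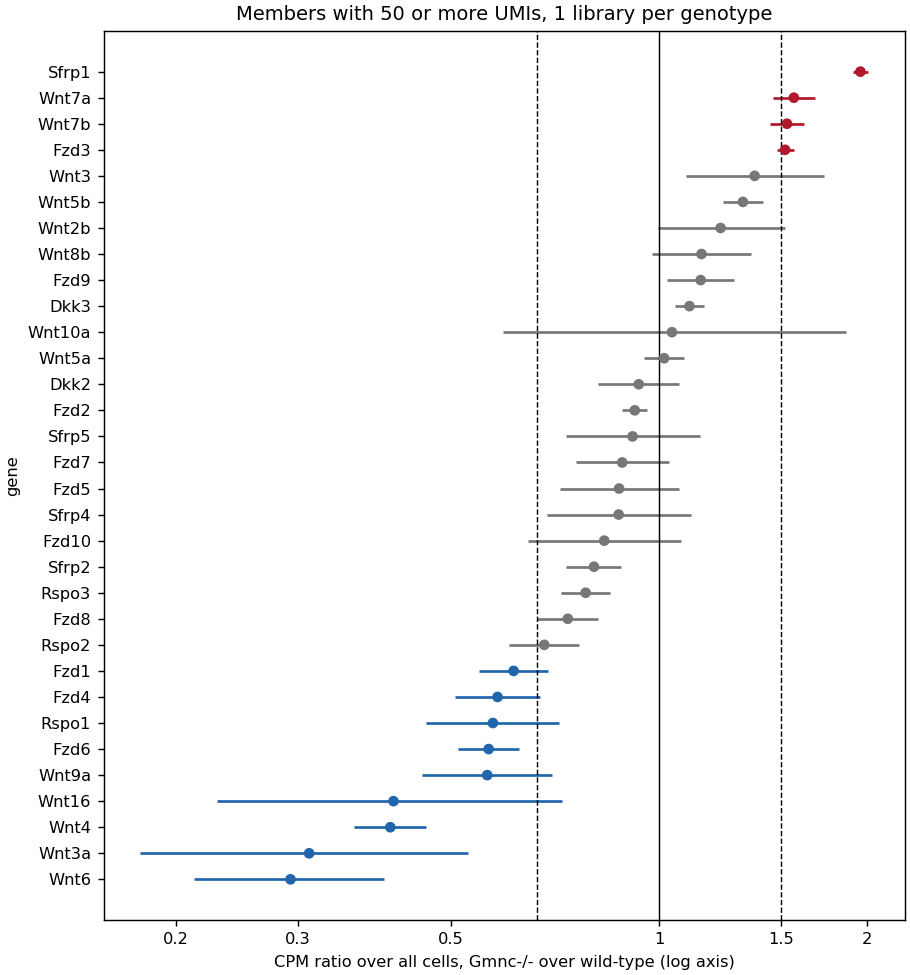
CPM ratio over all cells, Gmnc-/- over wild-type, on a log axis for the 32 members with 50 or more UMIs. Points are ratios of 1 library per genotype, lines exact 95% intervals for counting error, and dashed lines mark 1.5-fold in either direction. Sfrp1 lies furthest to the right at 1.95 and Wnt6 furthest to the left at 0.293.

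Wnt4, Wnt6 and Wnt16 were read out mainly in meningeal fibroblast-like cells, which are the collagen-rich cells of the brain's coverings and held 0.784% of Gmnc-/- and 1.28% of wild-type cells. Over all cells, Wnt4, a ligand known from kidney and gonad development, had 424 UMIs in the Gmnc-/- library against 755 in the wild-type library, or 3.91 and 9.58 CPM, which is 2.45-fold lower (2.17 to 2.76). Meningeal fibroblast-like cells held 67.5% of its UMIs in the Gmnc-/- library and 58.0% in the wild-type library. Within these cells its level was 255 CPM (226 to 286) in the Gmnc-/- library and 244 CPM (222 to 268) in the wild-type library, so the intervals overlapped. Ependymal-like cells, the ciliated cells that line the ventricles, held 18.5% of the wild-type UMIs of Wnt4 and were not found in the Gmnc-/- library. Wild-type Cajal-Retzius-like cells, the Reelin-rich neurons of the cortical surface, had Wnt4 at 49.2 CPM (29.2 to 77.8).

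Wnt6 had 58 UMIs in the Gmnc-/- library against 144 in the wild-type library, a 3.41-fold lower level (2.50 to 4.71). It was 1.77-fold lower when cells had to have 2000 UMIs and less than 5% mitochondrial counts, and 2.25-fold lower with doublets kept. Meningeal fibroblast-like cells held 82.8% and 91.0% of them. Its level there was 42.8 CPM (31.5 to 56.7) in the Gmnc-/- library and 73.1 CPM (61.1 to 86.8) in the wild-type library, and unlike those of Wnt4 these intervals did not overlap. Wnt16 had 21 UMIs in the Gmnc-/- and 37 in the wild-type library, of which meningeal fibroblast-like cells held 66.7% and 78.4%. Its levels in these cells, 12.5 CPM (6.82 to 20.9) and 16.2 CPM (10.8 to 23.2), were not distinguishable at this depth. Wnt9a was 1.77-fold lower over all cells, at 1.40 CPM in the Gmnc-/- library and 2.49 CPM in the wild-type library. In meningeal fibroblast-like cells Wnt9a had 37.4 CPM in the Gmnc-/- and 38.0 CPM in the wild-type library, and its other high level was in choroid plexus-like cells, at 50.3 and 65.3 CPM.

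**Figure D2:**
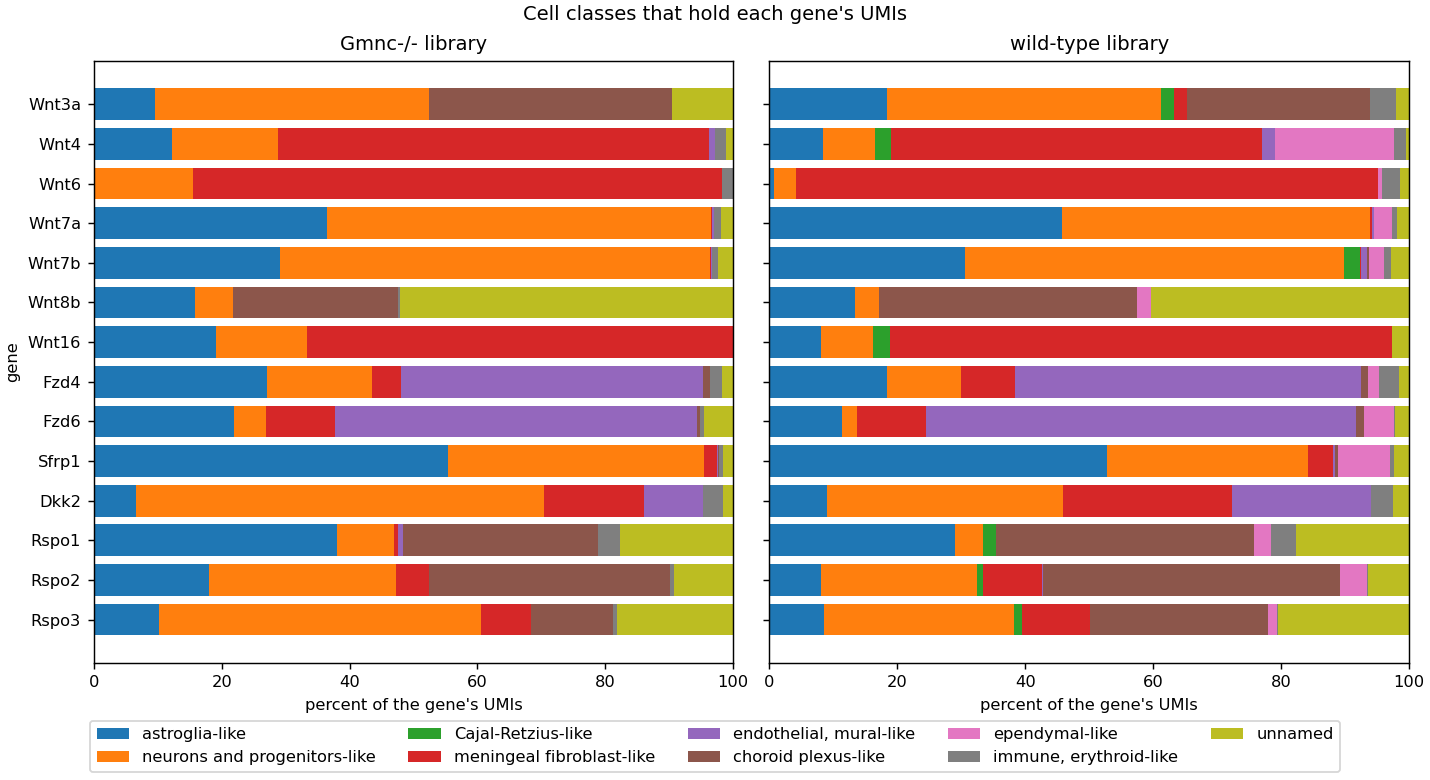
Percent of each gene's UMIs in each group of cell classes, Gmnc-/- library left and wild-type library right, for 14 members. The group of neurons and progenitors joins excitatory neuron-, interneuron-, striatal-, intermediate progenitor- and oligodendrocyte lineage-like cells. Wnt4, Wnt6 and Wnt16 lie mostly in meningeal fibroblast-like cells, Fzd6 in endothelial-like cells and Sfrp1 in astroglia-like cells.

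Choroid plexus-like cells, the epithelium that makes cerebrospinal fluid, were the named class with the highest levels of Rspo1, Rspo2 and Rspo3 in both libraries. They numbered only 28 in the Gmnc-/- library and 24 in the wild-type library. Markers of the class differed as well. Ttr had 65922 CPM in Gmnc-/- and 115316 CPM in wild-type cells of this class, and Clic6 92.2 and 186 CPM. Folr1, Kcnj13 and Otx2 were also lower in Gmnc-/- cells, while Kl, Aqp1 and Enpp2 were higher. Whether the class was made up alike in both libraries was not tested. Rspo2 reached 884 CPM (769 to 1010) in Gmnc-/- and 724 CPM (641 to 814) in wild-type choroid plexus-like cells. Rspo3 reached 662 CPM (563 to 774) and 831 CPM (742 to 928), and Rspo1 189 CPM (138 to 252) and 196 CPM (154 to 246). The ratios of Gmnc-/- over wild-type were 1.22 (1.02 to 1.47), 0.797 (0.654 to 0.967) and 0.962 (0.650 to 1.41) for Rspo2, Rspo3 and Rspo1, all within 1.5-fold, with Rspo2 and Rspo3 on opposite sides of 1.

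Wnt8b, a ligand of the embryonic hem and hippocampal primordium, had 411 CPM (333 to 501) in Gmnc-/- and 254 CPM (206 to 309) in wild-type choroid plexus-like cells, from 98 and 97 UMIs, and these intervals did not overlap. Wnt3a, which in mouse is required for the hippocampus to form, had 33.5 CPM (14.5 to 66.1) and 36.6 CPM (20.003 to 61.4) there, from 8 and 14 UMIs. Over all cells Wnt3a was 3.21-fold lower in the Gmnc-/- library (1.89 to 5.63), from 21 UMIs against 49. Rspo1 was 1.74-fold lower over all cells (1.39 to 2.17), but 1.35-fold lower in female-pattern cells, within the 1.5-fold line, and 2.69-fold lower in male-pattern cells. Rspo2 and Rspo3 lay within 1.5-fold, with ratios of 0.682 and 0.783, and the ratio of Rspo2 passed that line with doublets kept (0.643), in male-pattern cells (0.596) and with median-of-ratios scaling (0.663).

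Of the 3 clusters that got no name, 2 had high levels of ligands. A cluster of 8 Gmnc-/- and 10 wild-type cells, led by Gfap, Zfp804b and Npy and then by Rspo1, Rspo3 and Rspo2, had Rspo3 at 682 CPM in Gmnc-/- and 435 CPM in wild-type cells. Rspo1 there had 377 and 222 CPM, from 21 and 25 UMIs. A second cluster, of 495 Gmnc-/- and 210 wild-type cells, was led by Adamts19, Tesc, Rmst, Thrsp, Lhx9 and Lef1. It had Wnt8b at 51.7 CPM in Gmnc-/- and 38.1 CPM in wild-type cells, Wnt5a at 68.9 and 55.2 CPM, and Rspo3 at 49.7 and 78.0 CPM. Members took no part in the clustering, so that these levels did not shape the clusters.

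**Figure D3:**
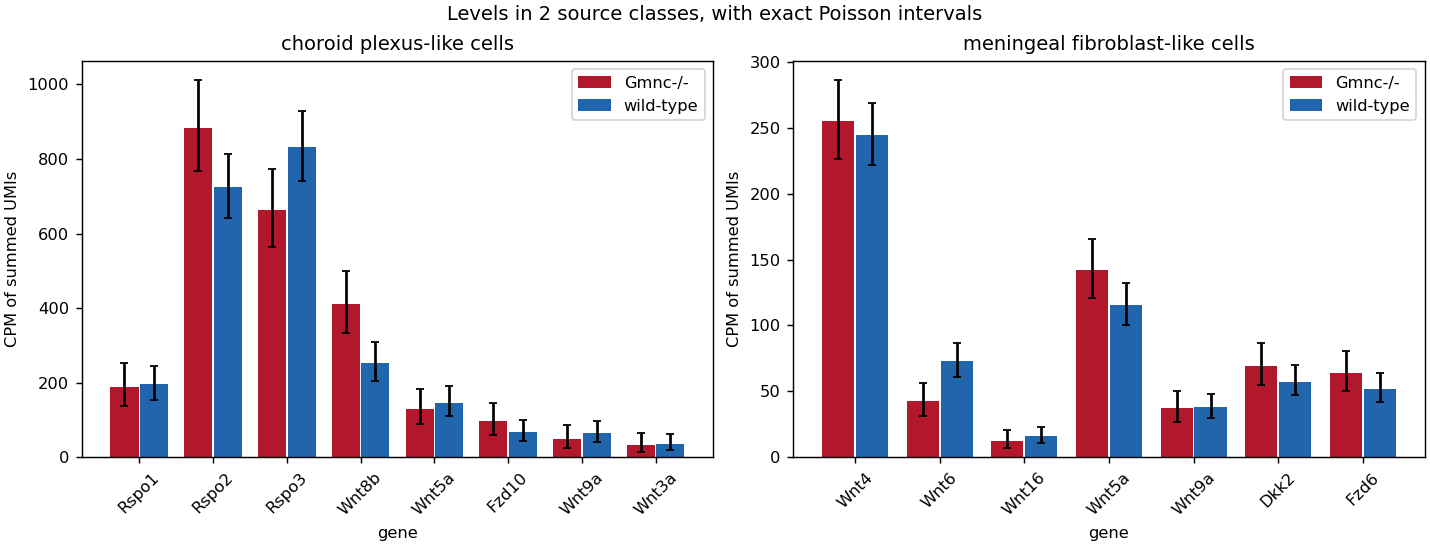
CPM of summed UMIs in choroid plexus-like cells (left, 28 Gmnc-/- and 24 wild-type cells) and meningeal fibroblast-like cells (right, 166 and 134 cells), with the Gmnc-/- bar left of the wild-type bar for each gene and exact Poisson intervals as error bars. Intervals of Wnt8b on the left and of Wnt6 on the right do not overlap.

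Wnt7a and Wnt7b, close paralogs that in the brain act on endothelial cells through Reck and Adgra2, were read out mainly in neuron- and astroglia-like cells. Over all cells Wnt7a had 23.5 CPM (22.6 to 24.5) in the Gmnc-/- library and 15.03 CPM (14.2 to 15.9) in the wild-type library, a ratio of 1.57 (1.46 to 1.68). Wnt7b had 33.7 CPM (32.6 to 34.8) and 22.0 CPM (21.0 to 23.1), a ratio of 1.53 (1.44 to 1.62). Their sources differed. Wnt7a was highest among the compared classes in interneuron-like cells of the Gmnc-/- library, at 44.9 CPM against 27.9 CPM in the wild-type library, while in the wild-type library astroglia-like cells were highest, at 29.2 CPM, against 38.3 CPM in Gmnc-/- astroglia-like cells. Wnt7b had 69.9 CPM in Gmnc-/- and 46.0 CPM in wild-type excitatory neuron-like cells, but 5.68 and 4.84 CPM in interneuron-like cells. Wild-type Cajal-Retzius-like cells had Wnt7b at 123 CPM (89.7 to 165) from 45 UMIs in 37 cells, and the single such Gmnc-/- cell had 0.

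The remaining ligands lay within 1.5-fold over all cells. Wnt5a, a ligand mostly known for signalling without beta-catenin, had 19.3 CPM in the Gmnc-/- library and 18.9 CPM in the wild-type library, with a ratio of 1.02 (0.951 to 1.09), and was spread over many classes. It reached 142 and 116 CPM in meningeal fibroblast-like cells, 130 and 146 CPM in choroid plexus-like cells, and 31.4 and 34.8 CPM in intermediate progenitor-like cells. Wnt5b had 22.8 and 17.2 CPM over all cells, and excitatory neuron-like cells held 47.9% and 42.6% of its UMIs. Wnt2b, Wnt3 and Wnt10a had 2.24, 2.06 and 0.305 CPM in the Gmnc-/- library, against 1.83, 1.497 and 0.292 CPM in the wild-type library. Intermediate progenitor-like cells held 42.4% and 47.8% of the few UMIs of Wnt10a.

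All 10 Frizzled receptors had 50 or more UMIs, with Fzd3 higher by the 1.5-fold rule in the Gmnc-/- library, Fzd1, Fzd4 and Fzd6 lower, and the other 6 within it. Fzd3, a receptor needed for axon tracts in mouse, had 137 CPM (135 to 139) in the Gmnc-/- library and 90.0 CPM (87.9 to 92.1) in the wild-type library, a ratio of 1.52 (1.48 to 1.57). It was present across the neural classes, from 126 CPM in oligodendrocyte lineage-like to 174 CPM in intermediate progenitor-like cells of the Gmnc-/- library, and from 87.8 to 120 CPM over the same kinds of cells in the wild-type library. Within the 6 compared neural classes its ratio ran from 1.31 to 1.49, below the 1.5-fold line in each. Outside these, choroid plexus-like cells had 289 CPM in the Gmnc-/- and 152 CPM in the wild-type library, and wild-type ependymal-like cells 185 CPM (168 to 203).

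Fzd4 and Fzd6 were read out more in endothelial-like cells, which line blood vessels, than in any other named class. Fzd4, the receptor of Norrin in retinal vessels, had 3.27 CPM in the Gmnc-/- and 5.60 CPM in the wild-type library over all cells, a level 1.71-fold lower (1.49 to 1.98). Fzd6 was 1.76-fold lower (1.59 to 1.96), at 6.19 and 10.9 CPM. Endothelial-like cells were 0.850% of Gmnc-/- and 2.08% of wild-type cells and held 53.5% and 64.3% of the UMIs of Fzd6 and 46.3% and 54.0% of those of Fzd4. Within them Fzd6 had 155 CPM (140 to 172) and 147 CPM (135 to 160), and Fzd4 71.0 CPM (60.5 to 82.7) and 63.2 CPM (55.4 to 71.8), with overlapping intervals for both genes. Fzd1 was 1.62-fold lower over all cells (1.45 to 1.82), with 5.05 CPM in the Gmnc-/- and 8.20 CPM in the wild-type library. It was also lower past 1.5-fold within excitatory neuron-like cells, with 4.96 and 7.92 CPM, and within interneuron-like cells, with 1.98 and 3.30 CPM.

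Astroglia-like cells, which join radial glia, apical progenitors and astrocytes, held most UMIs of Fzd8 and Fzd9 and the largest share of Fzd2. Fzd2 had 91.7 CPM (87.9 to 95.6) in Gmnc-/- and 96.3 CPM (91.9 to 101) in wild-type astroglia-like cells. Over all cells Fzd2 had 46.8 and 50.8 CPM, Fzd8 7.15 and 9.70 CPM, Fzd9 7.47 and 6.51 CPM, Fzd7 3.43 and 3.88 CPM, Fzd5 2.08 and 2.37 CPM, and Fzd10 1.24 and 1.48 CPM, in the Gmnc-/- and the wild-type library. Fzd10 was highest in choroid plexus-like cells, at 96.4 and 68.0 CPM with overlapping intervals.

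**Figure D4:**
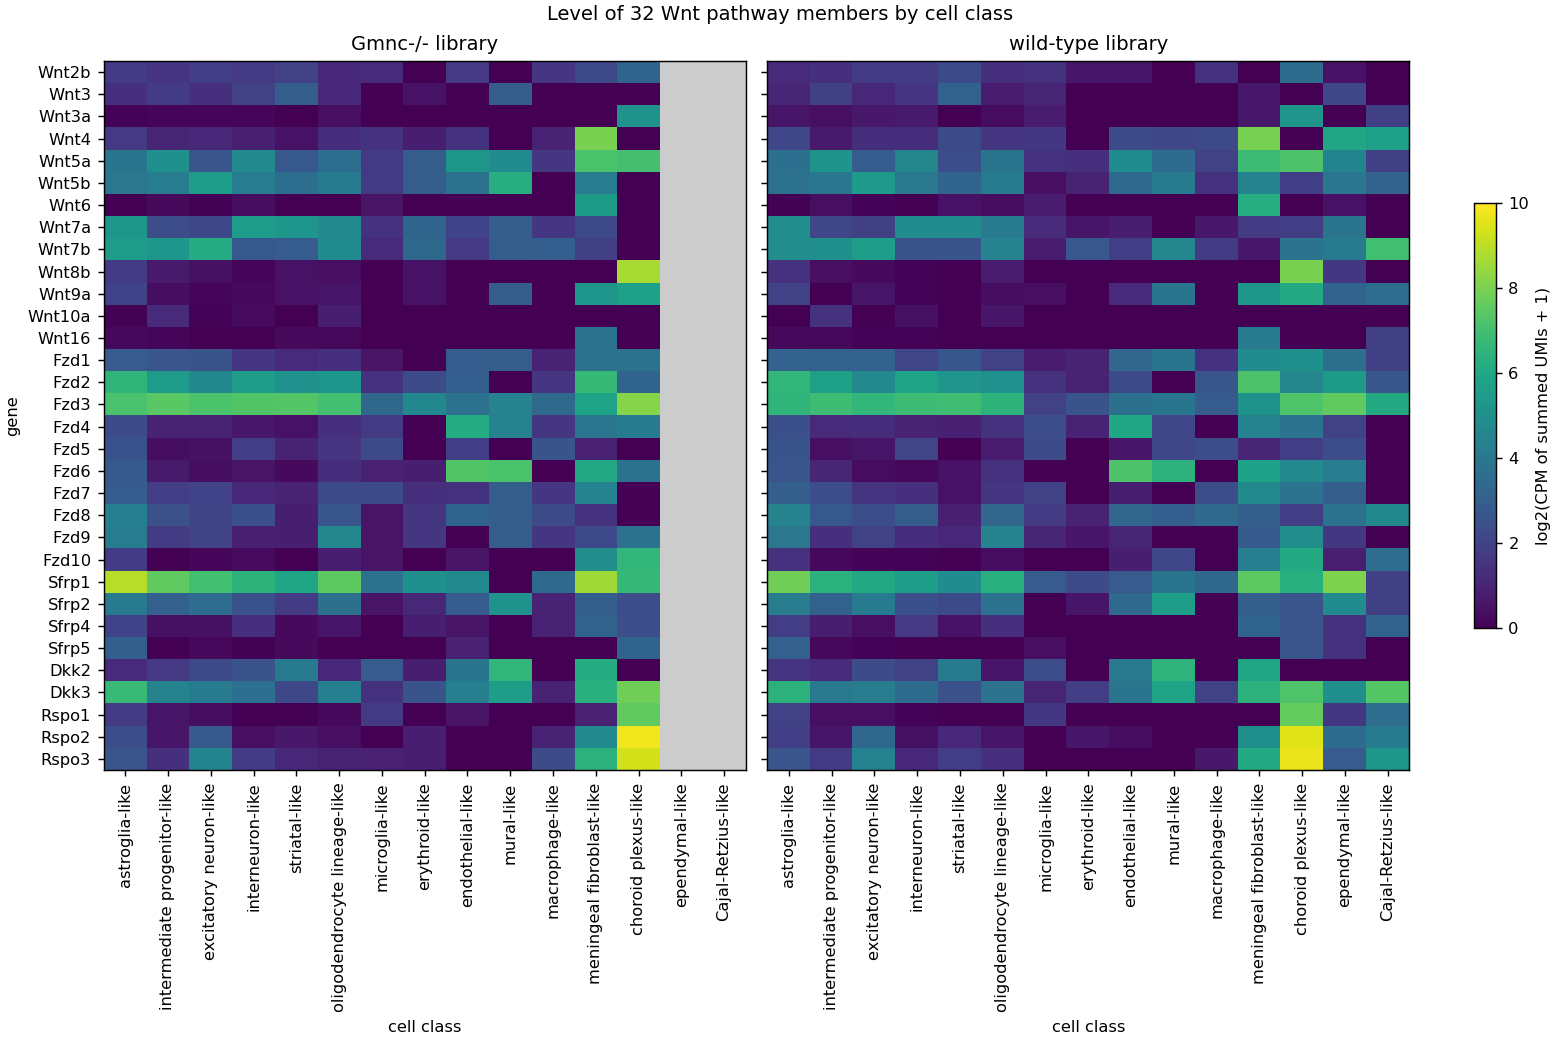
log2(CPM + 1) of 32 members (rows) in 15 cell classes (columns), Gmnc-/- library left and wild-type library right; grey marks classes with fewer than 20 cells. The R-spondins and Wnt8b are bright in choroid plexus-like cells, Wnt4 and Wnt6 in meningeal fibroblast-like cells, and Sfrp1 in astroglia-like cells of both libraries.

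Sfrp1 was the member furthest above 1 over all cells. It had 21255 UMIs in the Gmnc-/- library against 7908 in the wild-type library, or 196 CPM (194 to 199) and 100.4 CPM (98.2 to 103), a ratio of 1.95 (1.90 to 2.01). Astroglia-like cells held 55.4% and 52.8% of its UMIs, at 484 and 225 CPM. The ratio was 2.15 (2.07 to 2.23) in astroglia-like, 2.26 (2.05 to 2.49) in intermediate progenitor-like, 1.93 (1.80 to 2.08) in excitatory neuron-like, 1.83 (1.68 to 2.01) in interneuron-like, 2.08 (1.59 to 2.75) in striatal-like and 2.32 (2.04 to 2.64) in oligodendrocyte lineage-like cells. Sfrp1 was thus higher past 1.5-fold in all 6 compared neural classes, and in 27 of the 29 clusters with 50 or more of its UMIs. Wild-type ependymal-like cells had Sfrp1 at 270 CPM (250 to 292) and held 8.13% of its wild-type UMIs. Meningeal fibroblast-like cells had 379 CPM (344 to 417) in the Gmnc-/- and 175 CPM (156 to 196) in the wild-type library.

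Erythroid-like cells are not known as a source of Sfrp1 and were set beside the others as a measure of RNA free in the suspension. They had 81 Sfrp1 UMIs in the Gmnc-/- and 8 in the wild-type library, or 31.7 and 4.05 CPM, a ratio of 7.82 (3.78 to 18.7). In this class 66.9% of all features were higher in the Gmnc-/- library. Fzd3 was higher there as well, at 24.2 and 5.06 CPM. Other classes with low levels had other ratios. Summed over the Sfrp family, the ratio was 7.38 (3.71 to 16.7) in erythroid-like cells. It was 1.27 (0.547 to 2.85) in macrophage-like cells, at 12.1 and 9.53 CPM, and 1.96 (1.06 to 3.70) in microglia-like cells, at 12.9 and 6.58 CPM. The erythroid-like ratio is thus that of its own class. After each cell was thinned to 2000 UMIs, which left out 2971 Gmnc-/- and 1822 wild-type cells with fewer, 52.6% (50.9 to 54.3) of 3374 Gmnc-/- and 33.4% (31.1 to 35.7) of 1681 wild-type astroglia-like cells had an Sfrp1 UMI. The shares of erythroid-like cells were 3.45% (1.94 to 5.62) of 435 and 0.415% (0.0105 to 2.29) of 241. Before thinning, over all cells of these classes, the shares were 76.5% and 72.3% of astroglia-like cells, at 5970 and 9260 UMIs per cell in the median, and 8.86% and 2.19% of erythroid-like cells, at 3411 and 4304 UMIs per cell. The part of free RNA in the ratios of the other classes was not tested.

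**Figure D5:**
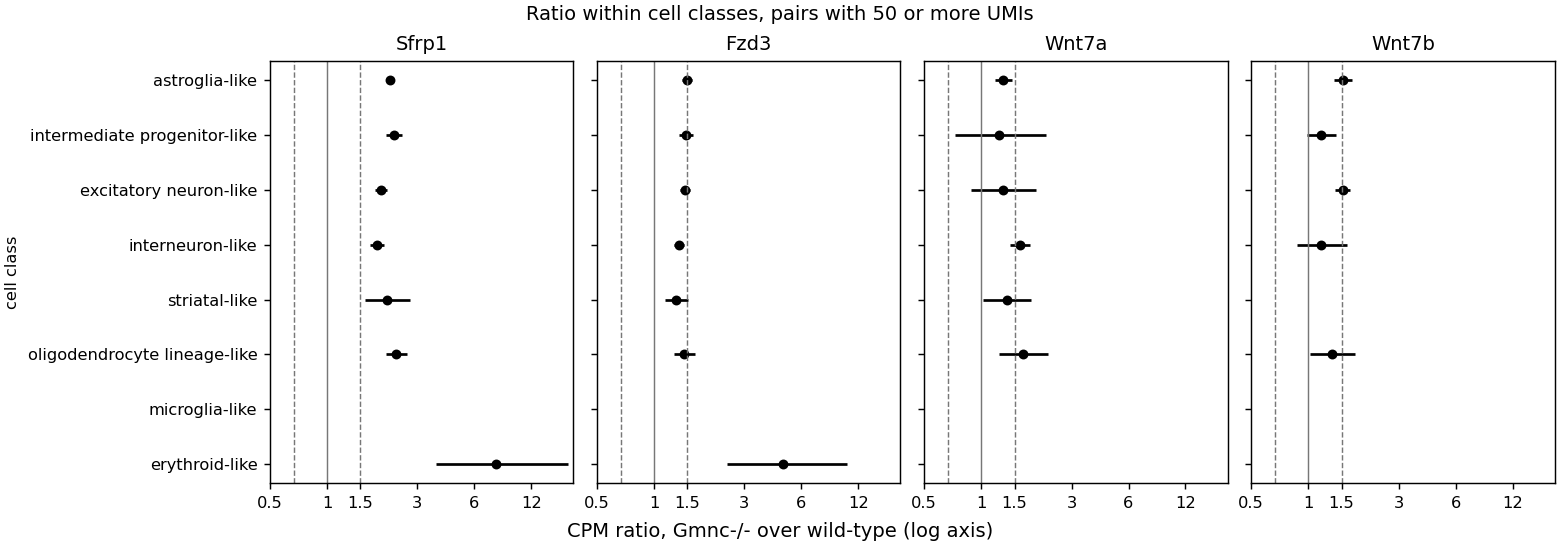
CPM ratio, Gmnc-/- over wild-type, on a log axis for Sfrp1, Fzd3, Wnt7a and Wnt7b within the 8 compared classes; lines are exact 95% intervals, dashed lines mark 1.5-fold, and classes with fewer than 50 UMIs of a gene have no point. Sfrp1 lies to the right of 1.5 in each class with a point, and the erythroid-like ratio of 7.82 is the furthest out.

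The other Sfrp and Dkk genes lay within 1.5-fold over all cells. Sfrp2, Sfrp4 and Sfrp5 had 9.10, 1.43 and 1.71 CPM in the Gmnc-/- library, against 11.3, 1.64 and 1.87 CPM in the wild-type library. Astroglia-like cells held 93.5% and 93.2% of the UMIs of Sfrp5. Dkk3, a Dickkopf relative whose action on Wnt signalling is debated, had 38.1 and 34.5 CPM over all cells, and 105 and 84.5 CPM in astroglia-like cells. Dkk2 had 4.62 and 4.95 CPM, with its highest levels in mural-like cells, at 95.1 and 88.9 CPM, and in meningeal fibroblast-like cells, at 69.5 and 57.5 CPM.

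Within the 8 classes that had 200 or more cells in each library, 96 pairs of a member and a class had 50 UMIs. Of these pairs, 18 were higher past 1.5-fold in the Gmnc-/- library and 8 lower. Among all features with 50 UMIs in a class, the shares higher and lower were 11.1% and 5.18% in astroglia-like, 7.2% and 6.81% in excitatory neuron-like, 8.04% and 5.96% in interneuron-like and 11.6% and 5.7% in intermediate progenitor-like cells. They were 10.2% and 5.08% in oligodendrocyte lineage-like, 7.25% and 5.18% in striatal-like, 17% and 5.01% in microglia-like and 66.9% and 3.15% in erythroid-like cells. The 2 pairs of erythroid-like cells, those of Sfrp1 and Fzd3, were both among the 18 higher ones. Sfrp1 gave 7 of the 18 higher pairs. Among the others, Wnt2b had 2.43 CPM in Gmnc-/- and 1.30 CPM in wild-type astroglia-like cells. Wnt4 had 2.14 and 3.40 CPM in the same cells. Dkk2 had 4.95 and 2.86 CPM in interneuron-like cells. Sfrp2 had 10.9 and 16.9 CPM in excitatory neuron-like cells. Fzd8 had 4.48 and 6.82 CPM in interneuron-like cells and 5.35 and 8.88 CPM in oligodendrocyte lineage-like cells.

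The classes of the Gmnc-/- library were then weighted by their shares of wild-type UMIs. Both values used the classes with 20 or more cells in each library. Ependymal-like, Cajal-Retzius-like and other leukocyte-like cells were thus left out of the wild-type value too. Wnt4 thus had 7.36 CPM in the Gmnc-/- and 7.86 CPM in the wild-type library, against the 9.58 CPM over all wild-type cells. With these weights 6 of the 9 lower members came within 1.5-fold. The ratio became 0.935 for Wnt4, 0.924 for Wnt9a, 0.985 for Fzd4, 1.11 for Fzd6, 0.869 for Rspo1 and 0.753 for Wnt16. It stayed past 1.5-fold for Wnt6 at 0.590, Wnt3a at 0.445 and Fzd1 at 0.664. Sfrp1 came to 2.10 and Wnt8b to 1.60, and Wnt7a, Wnt7b and Fzd3 to 1.46, 1.44 and 1.45. The weights acted on whole classes. The unnamed cells counted as 1 class, though their 3 clusters had 495, 362 and 8 Gmnc-/- and 210, 330 and 10 wild-type cells. Shifts between clusters of a class were thus not removed. In the 1 cluster with enough Wnt6 UMIs its ratio was 0.670, within 1.5-fold. Fzd1 was lower past 1.5-fold in 4 of 8 clusters with enough of its UMIs. The part of such shifts in the ratios of Wnt6, Wnt3a and Fzd1 was not tested. With these weights 7.98% of all features were higher and 5.23% lower past 1.5-fold, so that the background of lower features shrank as well. Gene length moved with the ratio over all features: the median log2 ratio was -0.20 in the 4306 features with the shortest gene span and 0.21 in the 4307 with the longest. Its part in the values of single members was not tested.

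Of 91 other genes of the pathway, 89 had 50 UMIs over all cells, and 9 were higher and 11 lower past 1.5-fold, against the 8.9% and 15% of all features. The higher ones were mostly parts inside the cell or nucleus. Apc2 and Apc, scaffold proteins of the complex that degrades beta-catenin, had ratios of 1.84 and 1.62, and their partner Amer1 1.70. The nuclear co-factors Bcl9l and Pygo1 had ratios of 1.70 and 1.67 and Tle2, a co-repressor, 1.67. Draxin, a secreted antagonist and axon guidance protein, had 93.6 CPM in the Gmnc-/- and 48.7 CPM in the wild-type library, and Celsr3, a planar polarity cadherin, 18.0 and 11.1 CPM.

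The list named secreted and membrane antagonists gave 8 of the 11 lower genes, out of 19 on it with 50 UMIs. Of all features, 15% were lower. Fewer pathway genes were lower at wild-type class shares, as given in the last section. It also holds genes not known as antagonists, such as Reck, Adgra2 and Ndp, the gene of Norrin. Its count is thus not one of antagonists alone. Cthrc1, a secreted collagen-associated protein, had 8.05 CPM in the Gmnc-/- and 19.1 CPM in the wild-type library, and Notum, the enzyme that removes the lipid from Wnt ligands, 1.33 and 2.88 CPM. Trabd2b, Dkkl1, Adgra2 and Igfbp4 on this list were 1.74-fold to 1.83-fold lower, and of these Adgra2 is known as a co-receptor for Wnt7 ligands and not as an antagonist. Tinagl1, a matrix protein that had been put on the list for the secretion of ligands, was 3.81-fold lower, with 22 UMIs in the Gmnc-/- and 61 in the wild-type library. Porcn and Wls, the other genes on that list, lay within 1.5-fold. Cd44, from the list of target genes, was 1.67-fold lower. Axin2, a feedback target of beta-catenin signalling, had 46.1 CPM in Gmnc-/- and 32.9 CPM in wild-type astroglia-like cells, and 98.9 and 67.0 CPM in meningeal fibroblast-like cells, a difference below 1.5-fold in both. Axin2 does not stand for its list. Of the 11 genes counted as target and feedback genes, 0 were higher and 2 lower past 1.5-fold over all cells. Of all features, 8.9% were higher and 15% lower. Lgr5, Tcf7, Lef1, Notum, Apcdd1, Rnf43 and Znrf3, also known as targets, were counted on other lists and are not among the 11. Their median log2 ratio was -0.12.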

How the data were processed

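Per the labels, tissue was dissociated with enzymes and cells were captured in droplets. The authors deposited UMI counts for every gene and barcode; the submitters' processing notes name Cell Ranger 7.1.0 and mm10. The lowest barcode total was 500 UMIs. Kept cells had at least 1000 UMIs and less than 10% mitochondrial counts, and doublets called by Scrublet in scanpy 1.11.5 were removed. Both libraries were clustered together (2000 variable genes, 30 components, 15 neighbours, leidenalg 0.10.2 at resolution 1), with the members left out. The regulators Gmnc, Trp73, Mcidas, Ccno, Foxj1, Myb, Rfx2, Rfx3 and E2f4 were left out too. Other genes of the ciliary programme, such as Rsph1 and Dynlrb2, stayed in. Names came from the best of the marker lists, and 3 of 37 clusters got none; each name has "-like" added. The lowest score that gave a name (0.8 in neural, 2.0 in the remaining classes) and a second split of the ventricular epithelium at resolution 0.3 were chosen after seeing the data, and the study's own cell names may be different. UMIs were added up over the cells of a library or class and scaled to CPM of that sum. Sums carry exact Poisson, shares Clopper-Pearson and ratios exact conditional intervals at 95% (SciPy 1.17.1); a ratio past 1.5-fold with 50 UMIs over both libraries was called, and nothing was tested, because cells are not replicates. The calculation was tested on simulated counts. All members could be named; values by class were given for called members and for the 4 with most UMIs per family. Those of Wnt2b, Wnt8b, Wnt10a, Fzd7, Fzd9 and Fzd10 were added after they were seen, and at most 8 other pathway genes per direction were named. Axin2 was named outside this rule. The members and lists were chosen with earlier results of these data known. Gene positions came from GENCODE. Alternatives were other cell filters, doublets kept, cells of each sex pattern, other resolutions, clustering with the members, median-of-ratios scaling, a lower UMI minimum, 5 CPM added and wild-type class shares.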

Additional observations from a re-analysis of the deposited data

Results flagged for a closer look

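In 2 members the ratio lay past 1.5-fold in opposite directions in different cell classes, and the difference between classes was not tested. Fzd7 had a ratio, Gmnc-/- over wild-type, of 1.61 in excitatory neuron-like cells and 0.617 in intermediate progenitor-like cells, the second from 27 and 26 UMIs with an interval that includes 1. Rspo2 had a ratio of 1.60 in astroglia-like cells and 0.644 in excitatory neuron-like cells. Outside the gene rows, the feature Stop-Ai9 had 21245 UMIs in the Gmnc-/- library and 44735 in the wild-type library, while tdTomato and LacZ had 0 in both; the labels used here do not name it.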

How the results depend on the processing

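No paired analysis was possible because there is 1 library per genotype. The count of 4 members higher over all cells became 2 in female-pattern cells, 2 with median-of-ratios scaling, 1 with 5 CPM added and 2 at wild-type class shares, where 8.33%, 7.48%, 2.87% and 7.98% of all features were higher. The 9 lower became 1 with 5 CPM added and 3 at wild-type class shares, where 4.84% and 5.23% of all features were lower. The 11 lower pathway genes became 7 with doublets kept, 7 in male-pattern cells, 2 with 5 CPM added and 4 at wild-type class shares. Of all features, 14.3%, 10.3%, 4.84% and 5.23% were lower in these settings. Within classes, the 18 higher of 96 pairs became 29 of 117 with doublets kept and 8 of 32 in male-pattern cells. They became 33 of 154 with a minimum of 10 UMIs and 10 of 96 with 5 CPM added. The 8 lower became 2 of 32 in male-pattern cells and 25 of 154 with a minimum of 10 UMIs. They became 0 of 96 with 5 CPM added and 5 of 89 at resolution 2. The shares of all features within classes were not taken for these settings. Fzd6 turned to a log2 ratio of 0.15 at wild-type class shares. Beyond what each setting changes by its construction, the cause was not tested. The minimum of 10 UMIs cannot change a member with 50 and is left out of what follows. Sfrp1 kept its call in 8 of 8 alternatives, with ratios from 1.79 to 2.10. Fzd3, Wnt7a and Wnt7b kept theirs in 4, 5 and 3 of 8. Wnt16, 2.42-fold lower, came to 1.52-fold with the stricter cell filter, where it fell under 50 UMIs. With 5 CPM added, Wnt6, Wnt3a, Wnt16, Wnt9a and Rspo1 came to 1.23-fold, 1.08-fold, 1.05-fold, 1.17-fold and 1.16-fold lower. Their wild-type levels were 1.83, 0.622, 0.470, 2.49 and 2.36 CPM. At such levels no Gmnc-/- count could give a call of lower once 5 CPM is added. Their loss from the count in that setting was thus fixed in advance and is no check of these members. This does not hold for Fzd1, Fzd4 and Fzd6, which lost their call there too. Their wild-type levels of 8.20, 5.60 and 10.9 CPM left a call possible, and their log2 ratios became -0.39, -0.36 and -0.51. Wnt3, within 1.5-fold over all cells, had a ratio of 2.09 in male-pattern cells. Of 256 member values under alternatives, 53 moved beyond their counting interval and 1 more, that of Fzd6, was of a called member and changed direction. Counting uncalled members too, 12 values of 7 members lay on the other side of 1. Of 48 unthinned shares of cells, 41 lay outside the thinned interval. Thinning takes UMIs away from cells, so that such a shift is largely fixed by the setting and is no check of the shares. Low counts limit what can be said of Wnt16, Wnt3a and the choroid plexus-like class.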
